A study of Mus musculus with 6 samples.

Results

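Splicing regulators, meaning the serine/arginine-rich (SR) proteins, the heterogeneous nuclear ribonucleoproteins (hnRNPs), the kinases that phosphorylate SR proteins and several neuronal splicing factors, were followed in RNA from mouse primary cortical neurons. The members were the 38 genes of a fixed list, matched by symbol among the 55385 gene identifiers counted, and all 38 passed the filter on low counts together with 18132 genes in all. Neurons had been taken at embryonic day 18 and kept 16 days in vitro, and every culture had received the antimitotic AraC at 2.5 uM for 24 hours from day 2, which limits but does not remove dividing cells. The 3 libraries labelled activated came from neurons given KCl for 5 minutes, washed, and left 30 minutes in conditioned medium. The 3 libraries labelled control came from untreated neurons. The KCl dose is 50 in both fields that state it, once in mM and once in uM. Whether replicates were different cultures or animals is not in the labels. The p-values thus measure spread between these samples only, which may be technical.

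Exon and intron choice depends on proteins that bind pre-mRNA beside the core spliceosome. SR proteins usually favour the use of an exon and hnRNPs often oppose it, while phosphorylation by the nuclear CLK and mainly cytoplasmic SRPK kinases moves SR proteins between nuclear speckles, nucleoplasm and cytoplasm. In neurons, RBFOX, NOVA and PTB family members set much of the neuron-type exon programme. Many of these genes carry exons or introns that limit their own mRNA. The counts used here are per gene and strand, so they cannot tell productive from unproductive transcripts.

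Libraries held 17752711 to 32740171 gene reads in the activated-labelled group and 22994946 to 32919975 in the control-labelled group, and the lowest count of any member was 321 reads, for Clk2. Arc, a gene normally induced by neuronal activity, ran counter to the labels: it averaged 48.9 ± 2.92 CPM in activated-labelled and 176 ± 11.8 CPM in control-labelled libraries (SD, n = 3 each), and Npas4 and Fosb had log2 fold changes of −1.84 and −2.39. Directions below therefore rest on the labels being right. Levels are CPM (reads of a gene relative to all gene reads of its library) after TMM scaling, which sets libraries to a common level over most genes. Fold changes are log2, labelled activated over labelled control, and a gene is called where the edgeR quasi-likelihood adjusted p is below 0.05. Reads outside annotated exons made up 28.3% to 37.3% of all reads in activated-labelled and 25.1% to 29.6% in control-labelled libraries. Mitochondrial reads made up 21.3% to 25.02% of gene reads in activated-labelled and 14.7% to 17.1% in control-labelled libraries.

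Of the 38 splicing regulators, 4 rose, 16 fell and 18 were not called. The 4 that rose (10.5%) were the kinase genes Clk1 and Clk4, the SR-like gene Tra2a and the PTB gene Ptbp1, against 16.2% of all tested genes called higher. The 16 that fell (42.1%) stood beside 20.6% of all tested genes called lower. All members are well expressed, however, and among the 7171 genes at or above the mean level of the lowest member, 13.4% were called higher and 40.2% lower. The share of members that fell was therefore close to that of genes expressed at such levels, and the count alone is no result about splicing regulators. The groups did not overlap for 25 members (65.8%), against 49.0% of all tested genes and 62.9% of the genes at member levels. The median log2 fold change was −0.15 over the members, −0.11 over genes at member levels and 0.04 over all tested genes. No member changed as much as 2-fold: the values ran from −0.46 for Rbfox1 to 0.42 for Clk1. The 16 lower calls of members were made with TMM scaling and all were lost when libraries were scaled to neuron markers, where Tra2b, Hnrnpf and Rbfox2 were called higher instead. Direction differed among families, as the plot of fold changes by family shows.

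**Figure D1:**
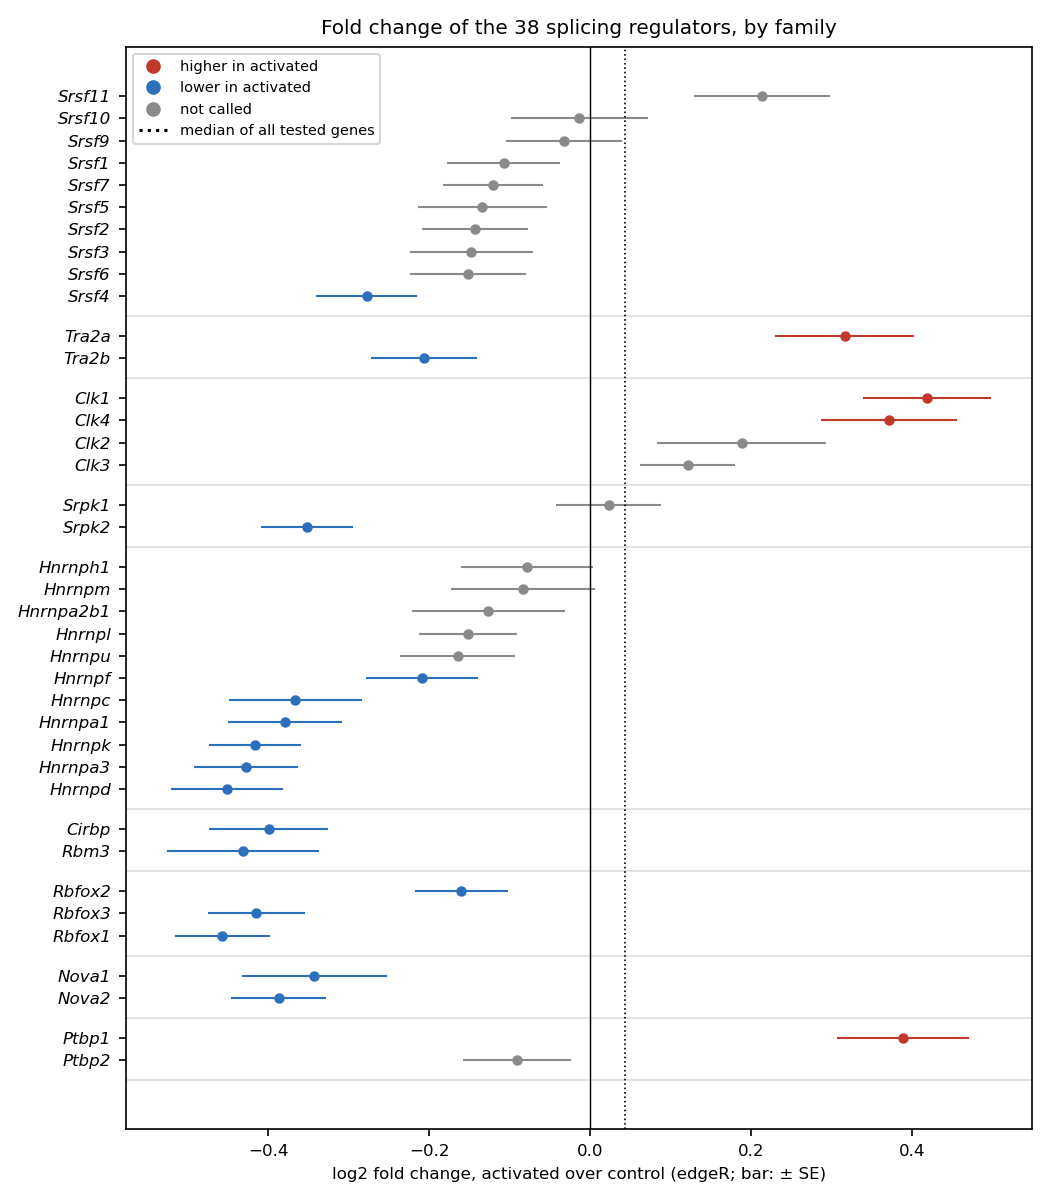
Log2 fold change of each of the 38 genes (x axis, labelled activated over labelled control, edgeR, bar ± SE), grouped by family down the page, with the median of all tested genes as a dotted line. All 4 CLK genes lie to the right of zero and, with TMM but not neuron marker scaling, all hnRNP, cold-inducible, RBFOX and NOVA genes to its left. Tra2a and Tra2b, and Ptbp1 and Ptbp2, lie on opposite sides, again not with neuron marker scaling.

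The CLK kinases act inside the nucleus, where they phosphorylate SR proteins and release them from speckles. Clk1 (ENSMUSG00000026034.17, GRCm38 chromosome 1, 58410189 to 58424066, minus strand) stood at 67.8, 70.9 and 57.5 CPM in labelled activated replicates 1, 2 and 3, against 47.3, 47.4 and 51.7 CPM in labelled control replicates 1, 2 and 3. Each activated-labelled library lay above each control-labelled one. Its log2 fold change was 0.42 ± 0.08 (± SE; adjusted p = 0.00116 in edgeR). Clk4 (ENSMUSG00000020385.16, chromosome 11, 51261730 to 51281766, plus strand), the closest relative of Clk1, had 47.7, 50.9 and 39.5 CPM in labelled activated and 36.1, 35.1 and 35.2 CPM in labelled control replicates. These groups did not overlap either, and the log2 fold change was 0.37 ± 0.08 (± SE; adjusted p = 0.00385 in edgeR). The ratio of Clk1 to Clk4 reads stayed between 1.39 and 1.46 in activated-labelled and between 1.31 and 1.47 in control-labelled libraries. Clk2 and Clk3, the other two CLK genes, were not called, with log2 fold changes of 0.19 ± 0.10 and 0.12 ± 0.06 (SE). Clk3 groups did not overlap (52.4, 54.3 and 55.0 CPM in labelled activated against 49.8, 49.7 and 49.3 CPM in labelled control replicates), although its adjusted p was 0.122. Clk1 and Clk4 were called in every one of the 13 alternatives run.

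Annotated transcripts with a retained intron count as exon sequence in these files. The annotation lists 7 such transcripts for Clk1, 7 for Clk4, 2 for Tra2a and 5 for Ptbp1, a median of 6 over the 4 genes that rose, against a median of 1 over the 16 that fell (range 0 to 13) and 3 over the 18 not called. Within the activated-labelled group, reads outside exons made up 32.1%, 37.3% and 28.3% of replicates 1, 2 and 3. Clk1, Clk4 and Tra2a were highest in replicate 2 and lowest in replicate 3. So were 20 of all 38 members (52.6%), against 18.6% of all tested genes. The part of reads from introns in these results was not tested. Clk1, Clk4 and Tra2a were still called without labelled activated replicate 2, which is no test of reads from introns.

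The SRPK kinases phosphorylate SR proteins in the cytoplasm and promote their import. Srpk2, the brain-enriched form, had 151, 150 and 148 CPM in labelled activated against 194, 185 and 194 CPM in labelled control replicates, with no overlap. It fell by 0.35 ± 0.06 (SE) on the log2 scale (edgeR adjusted p = 0.000385). Srpk1 was not called, at 64.1 ± 4.35 CPM in labelled activated and 63.1 ± 1.64 CPM in labelled control libraries (SD, n = 3 each; log2 fold change 0.02). The ratio of Srpk1 to Srpk2 reads, which does not depend on how libraries are scaled, was 0.408, 0.460 and 0.416 in labelled activated and 0.326, 0.332 and 0.333 in labelled control replicates. Its groups did not overlap (exact permutation p = 0.1 two-sided, the smallest that 3 against 3 allows; adjusted p = 0.24 over 12 pairs).

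**Figure D2:**
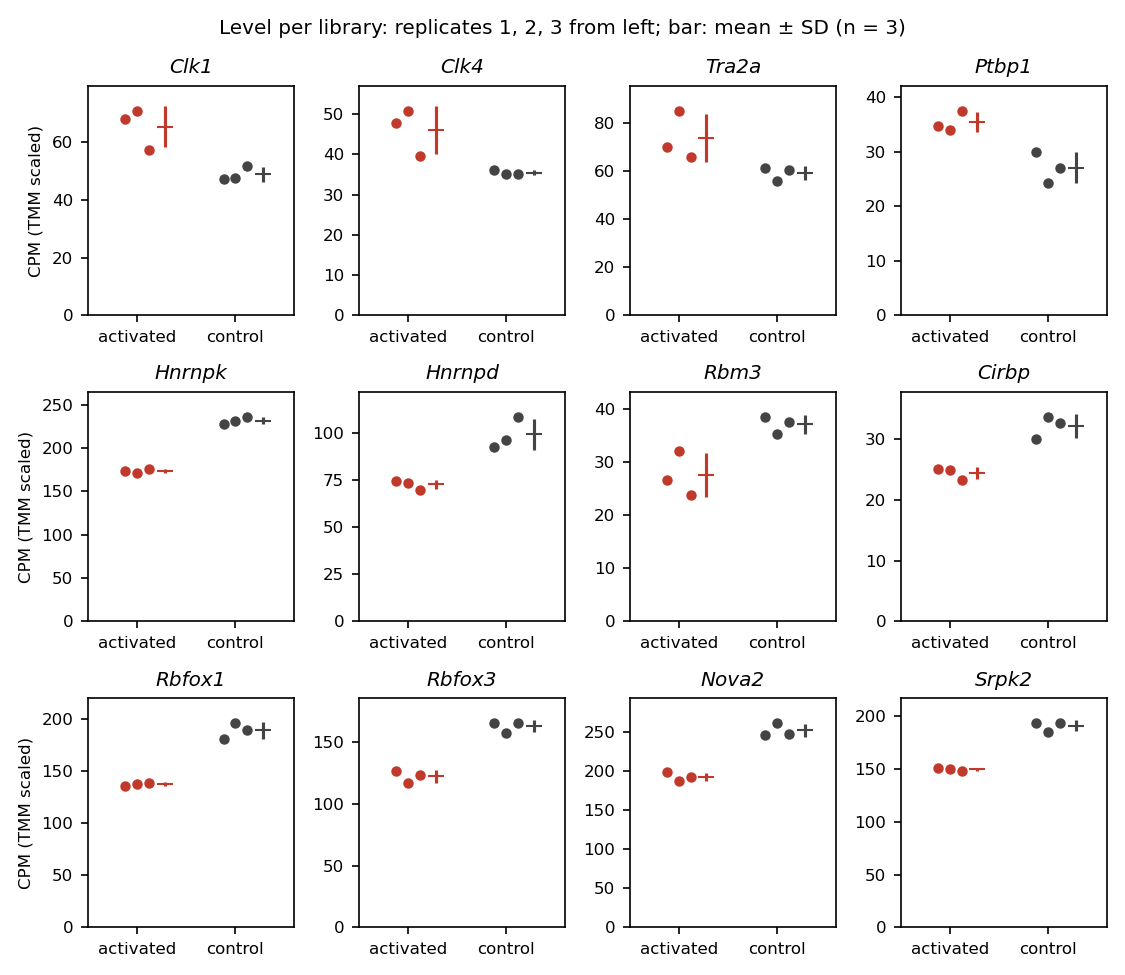
CPM (y axis, TMM scaled, from 0) of 12 members in each library labelled activated (left, red) and labelled control (right, dark), replicates 1 to 3 as points and mean ± SD as bars (n = 3). The groups do not overlap in any of the 12 panels: Clk1, Clk4, Tra2a and Ptbp1 are higher on the left and the other genes lower. The 12 genes were chosen from the called members after values were seen. Groups did not overlap for 49.0% of all tested genes and 62.9% of genes at member levels.

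SR proteins bind exonic enhancers through RNA recognition motifs and contact other factors through their serine/arginine-rich tails. With TMM scaling, 1 of 10 genes fell, none rose and 9 were not called, around a median log2 fold change of −0.13. Of all tested genes 20.6% were called lower and 16.2% higher, and of genes at member levels 40.2% and 13.4%. With neuron marker scaling, the 9 genes other than Srsf4 were called higher, with log2 fold changes from 0.25 to 0.62. That scaling called 60.1% of all tested genes higher. The gene that fell was Srsf4, at 30.7, 31.9 and 31.3 CPM in labelled activated against 38.1, 38.1 and 37.7 CPM in labelled control replicates (log2 fold change −0.28 ± 0.06, SE; edgeR adjusted p = 0.00384). That call was lost in unstranded counts (−0.11), and an exon of the gene Gm12992 lies opposite Srsf4. Srsf11 had the only positive value, 0.21 ± 0.08 (SE), with 81.4, 96.6 and 78.1 CPM in labelled activated against 74.4, 67.2 and 79.1 CPM in labelled control replicates, so the groups overlapped and it was not called (adjusted p = 0.0605). Srsf2, Srsf3, Srsf5, Srsf6, Srsf7 and Srsf1, which include the classical enhancer-binding SR proteins, had values between −0.15 and −0.11. Srsf9 and Srsf10, the last known as a splicing repressor when dephosphorylated, had values of −0.03 and −0.01. Per kilobase of annotated exon, Srsf5 was the most abundant SR gene, with 29.8 ± 3.23 RPKM (CPM divided by exon length in kilobases) in labelled activated and 32.7 ± 2.27 RPKM in labelled control libraries (SD, n = 3 each). The read ratio of Srsf5 to Srsf6, both regulated through unproductive exons, was 1.92 to 2.05 in labelled activated and 1.94 to 1.98 in labelled control libraries.

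The TRA2 proteins are SR-like activators that bind GAA-rich exons, and with TMM scaling Tra2a and Tra2b changed in opposite directions. Tra2a (ENSMUSG00000029817.11, chromosome 6, 49243924 to 49264033, minus strand) had 70.3, 85.3 and 66.1 CPM in labelled activated against 61.6, 56.1 and 60.4 CPM in labelled control replicates, a log2 fold change of 0.32 ± 0.09 (± SE; adjusted p = 0.0108 in edgeR). Tra2b (ENSMUSG00000022858.16, chromosome 16, 22244549 to 22266005, minus strand) had 48.9, 52.8 and 47.6 CPM in labelled activated against 55.5, 56.4 and 60.4 CPM in labelled control replicates, a log2 fold change of −0.21 ± 0.07 (± SE; adjusted p = 0.0245 in edgeR). Neither pair of groups overlapped. The read ratio of Tra2a to Tra2b was 1.44, 1.62 and 1.39 in labelled activated and 1.11, 0.993 and 1.001 in labelled control replicates, also with no overlap (exact permutation p = 0.1 two-sided; adjusted p = 0.24 over 12 pairs). Tra2a lost its call with total counts only (0.25; edgeR adjusted p = 0.0506). Tra2b lost its call without labelled control replicate 2 (−0.20) or 3 (−0.17), without labelled activated replicate 1 (−0.20) or 3 (−0.18), and with the replicate number as a block (−0.21). With neuron marker scaling Tra2b was called higher (0.19, edgeR adjusted p = 0.0282), the same direction as Tra2a (0.72). Transcripts of 3 other annotated genes share a run of at least 100 identical bases with Tra2b, so its reads are less certain.

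The promoters of these genes are shown because Tra2a and Clk4 are the only members whose window holds a full cyclic AMP response element (CRE, TGACGTCA), the site that CREB-type factors of activity signalling bind. RefSeq windows on GRCm38.p6 were found for 35 of the 38 members (50 windows, not for Clk1, Rbm3 or Rbfox2), and the 250 bases before each start were searched on both strands. The CRE was found in 1.55% of all 32851 windows, and its short form TGACG, which each full CRE contains, in 17.8%. Tra2a has the CRE 27 bases before its start and the short form at 48 bases, Clk4 has the CRE 65 bases before its start and the short form at 9, and Tra2b and Clk2 have the short form alone, at 61 and 17 bases. The short form is common among the members with a window. It was found in 2 of 3 that rose, 6 of 14 that fell and 12 of 18 not called. The other motifs searched were AP-1 (TGANTCA, in 6.75% of windows), EGR (GCGTGGGCG, 0.536%), CCAAT (33.8%), TATAAA (12.4%) and the E-box CACGTG (6.02%). AP-1 and EGR sites, which factors of activity signalling also bind, were each found in 1 of 14 members that fell (Hnrnpa1 and Hnrnpf). Neither was found in the 3 that rose or the 18 not called. A match is a description of the letters and not evidence that a factor was bound. Capitals mark the full and short motifs, and each sequence ends at the base before the start. The CLK windows are shorter than the TRA2 windows. Starts are those of RefSeq, and the Clk4 window lies inside the gene span given above, which begins at 51261730.
Tra2a, chr6:49264053-49264302, minus strand: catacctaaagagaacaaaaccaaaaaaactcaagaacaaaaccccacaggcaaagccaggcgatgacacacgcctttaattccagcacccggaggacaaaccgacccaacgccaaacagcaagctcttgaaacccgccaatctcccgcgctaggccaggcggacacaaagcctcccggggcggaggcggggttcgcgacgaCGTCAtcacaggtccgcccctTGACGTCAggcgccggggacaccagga
Tra2b, chr16:22266006-22266255, minus strand: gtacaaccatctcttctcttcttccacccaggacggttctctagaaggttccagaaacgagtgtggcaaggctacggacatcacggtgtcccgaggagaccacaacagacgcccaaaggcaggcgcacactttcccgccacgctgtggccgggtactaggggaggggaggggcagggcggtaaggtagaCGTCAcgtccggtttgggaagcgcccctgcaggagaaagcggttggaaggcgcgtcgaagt
Clk4, chr11:51263047-51263113, plus strand: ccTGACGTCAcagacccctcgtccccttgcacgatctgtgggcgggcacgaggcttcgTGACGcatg
Clk2, chr3:89164728-89164794, plus strand: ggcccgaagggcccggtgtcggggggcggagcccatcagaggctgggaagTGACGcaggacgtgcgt

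The hnRNPs coat nascent transcripts and often repress nearby splice sites. With TMM scaling, 6 of 11 genes fell, none rose and 5 were not called, with every value below zero and a median log2 fold change of −0.21. For comparison, 20.6% of all tested genes and 40.2% of genes at member levels were called lower. With neuron marker scaling no hnRNP gene was called lower, and values ran from −0.05 (Hnrnpd) to 0.32 (Hnrnph1). Without labelled activated replicate 3, Hnrnph1 (0.0037) and Hnrnpm (0.029) were just above zero. Hnrnpk (ENSMUSG00000021546.18, chromosome 13, 58391142 to 58403343, minus strand), a KH-domain protein that binds C-rich RNA, had 174, 171 and 176 CPM in labelled activated against 228, 231 and 236 CPM in labelled control replicates. Its groups were far apart relative to their spread, with a log2 fold change of −0.42 ± 0.06 (± SE; adjusted p = 0.000127 in edgeR). Hnrnpd, the AU-rich element binding protein also known as AUF1, had 74.8, 73.8 and 70.0 CPM in labelled activated against 92.9, 96.6 and 109 CPM in labelled control replicates, a log2 fold change of −0.45 ± 0.07 (± SE; adjusted p = 0.000277 in edgeR). The A-type hnRNP genes Hnrnpa3 (−0.43 ± 0.06) and Hnrnpa1 (−0.38 ± 0.07) and the U-tract binding Hnrnpc (−0.37 ± 0.08, SE) fell as well. Hnrnpf, which binds G-rich elements, fell by 0.21 on the log2 scale (edgeR adjusted p = 0.0300), but this call was lost on leaving out any library other than labelled activated replicate 3, with values from −0.21 to −0.19, and in the DESeq2 Wald test, in unstranded counts and with the replicate number as a block.

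The 5 hnRNP genes not called were Hnrnpu (−0.16), a nuclear matrix protein and the most counted member, Hnrnpl (−0.15), which binds CA repeats, Hnrnpa2b1 (−0.13), Hnrnpm (−0.08) and Hnrnph1 (−0.08). Hnrnpu had 294, 307 and 259 CPM in labelled activated against 317, 310 and 336 CPM in labelled control replicates. Hnrnpa1 and Hnrnpa2b1 are close relatives: their read ratio was 0.795, 0.750 and 0.882 in labelled activated and 0.945, 1.02 and 0.915 in labelled control replicates, without overlap (exact permutation p = 0.1 two-sided; adjusted p = 0.24 over 12 pairs). Identical runs of at least 100 bases were shared with transcripts of 31 other genes for Hnrnpa3, 12 for Hnrnpa1, 6 for Hnrnpf, 5 for Hnrnpd, and 2 each for Hnrnpc and Hnrnpk. Reads that map to several places are not counted, so the levels of these genes are uncertain.

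Rbm3 and Cirbp, RNA-binding proteins induced by mild cooling, fell to a like extent with TMM scaling. Rbm3 (chromosome X) had 26.5, 32.0 and 23.8 CPM in labelled activated against 38.5, 35.1 and 37.4 CPM in labelled control replicates, a log2 fold change of −0.43 ± 0.09 (± SE; adjusted p = 0.00303 in edgeR). Cirbp had 25.1, 24.9 and 23.2 CPM in labelled activated against 30.0, 33.7 and 32.8 CPM in labelled control replicates, a log2 fold change of −0.40 ± 0.07 (± SE; adjusted p = 0.00101 in edgeR). Neither gene's groups overlapped. With neuron marker scaling neither gene was called, at −0.03 for Rbm3 and 0.00056 for Cirbp. Transcripts of 4 other annotated genes share a run of at least 100 identical bases with Rbm3, so its reads are less certain. The ratio of Rbm3 to Cirbp reads ranged from 1.03 to 1.29 in labelled activated and from 1.04 to 1.28 in labelled control libraries (exact permutation p = 0.8 two-sided). The labels do not record culture temperature.

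RBFOX proteins bind GCAUG and promote or repress neuronal exons by position, and all 3 genes fell with TMM scaling. That scaling called 20.6% of all tested genes and 40.2% of genes at member levels lower. Rbfox1 (ENSMUSG00000008658.16, chromosome 16, 5885355 to 7411526, plus strand) had 136, 138 and 139 CPM in labelled activated against 181, 197 and 190 CPM in labelled control replicates. This was the lowest fold change of any member, −0.46 ± 0.06 (± SE; adjusted p = 8.92e-05 in edgeR). Rbfox3, whose protein is the neuronal marker NeuN, had 127, 117 and 123 CPM in labelled activated against 166, 157 and 166 CPM in labelled control replicates, a log2 fold change of −0.41 ± 0.06 (± SE; adjusted p = 0.000189 in edgeR). Rbfox2, which is also made outside neurons, fell less, at 266, 268 and 272 CPM in labelled activated against 307, 291 and 304 CPM in labelled control replicates (−0.16 ± 0.06, SE; edgeR adjusted p = 0.0437). This call was lost on leaving out any library other than labelled activated replicate 3 (values from −0.17 to −0.14) and with the replicate number as a block. With neuron marker scaling Rbfox2 was called higher (0.24, edgeR adjusted p = 0.00413), and Rbfox1 (−0.06) and Rbfox3 (−0.02) were not called. The read ratio of Rbfox1 to Rbfox2 was 0.512, 0.516 and 0.511 in labelled activated and 0.591, 0.677 and 0.626 in labelled control replicates, with no overlap (exact permutation p = 0.1 two-sided; adjusted p = 0.24 over 12 pairs).

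NOVA proteins bind YCAY clusters in transcripts of synaptic genes. Nova2, the main cortical form, had 198, 188 and 192 CPM in labelled activated against 247, 262 and 248 CPM in labelled control replicates, a log2 fold change of −0.39 ± 0.06 (± SE; adjusted p = 0.00026 in edgeR). Nova1 fell by 0.34 ± 0.09 (± SE; adjusted p = 0.00888 in edgeR) at lower levels, 24.1, 22.2 and 20.2 CPM in labelled activated against 29.1, 24.9 and 29.7 CPM in labelled control replicates, and lost its call without labelled control replicate 3 (−0.29). The groups did not overlap for either gene. Reads of Nova1 that also fall on the overlapping gene Gm33869 are not counted.

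PTB proteins repress neuronal exons: Ptbp1 is made in glia and dividing cells, and Ptbp2 takes its place in developing neurons. Ptbp1 (ENSMUSG00000006498.16, chromosome 10, 79854427 to 79864771, plus strand) had 34.8, 34.1 and 37.6 CPM in labelled activated against 30.0, 24.3 and 27.0 CPM in labelled control replicates, a log2 fold change of 0.39 ± 0.08 (± SE; adjusted p = 0.00237 in edgeR), and was called in each of the 13 alternatives. Ptbp2 was not called, at 93.9 ± 5.90 CPM in labelled activated and 99.8 ± 5.01 CPM in labelled control libraries (SD, n = 3 each; log2 fold change −0.09). The read ratio of Ptbp2 to Ptbp1 was 2.79, 2.86 and 2.32 in labelled activated and 3.24, 3.98 and 3.91 in labelled control replicates, with no overlap (exact permutation p = 0.1 two-sided; adjusted p = 0.24 over 12 pairs).

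**Figure D3:**
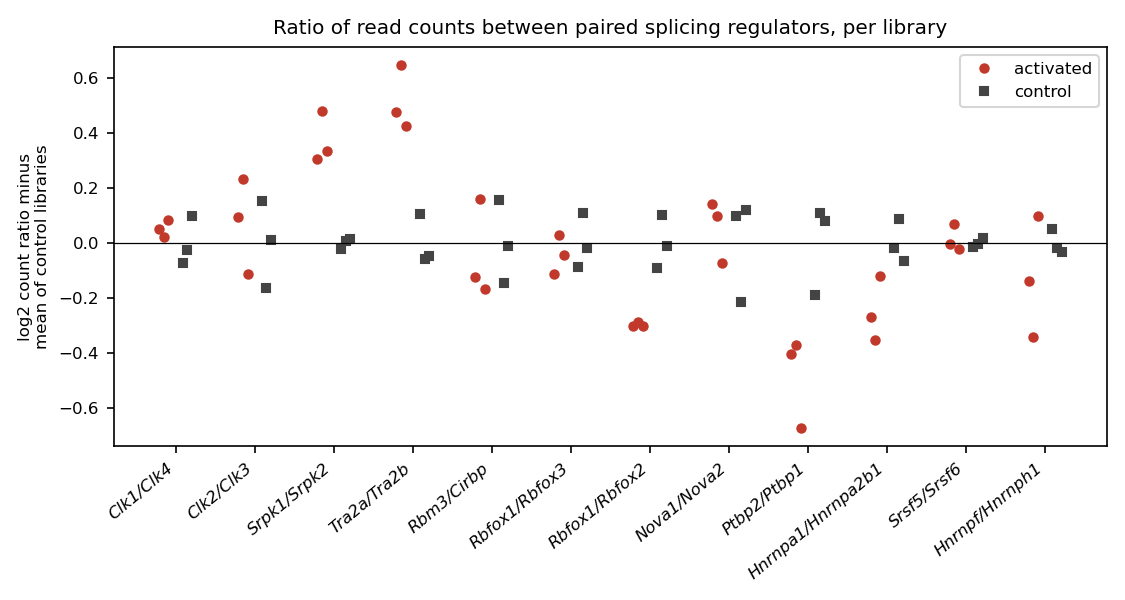
Log2 ratio of raw read counts between 12 pairs of members in each library, minus the mean of the control-labelled libraries (y axis), for libraries labelled activated (circles, left) and labelled control (squares, right). The groups are apart for Srpk1 over Srpk2, Tra2a over Tra2b, Rbfox1 over Rbfox2, Ptbp2 over Ptbp1 and Hnrnpa1 over Hnrnpa2b1, and overlap for the other 7 pairs. The pairs were chosen with earlier results of these data known. How often groups are apart for other pairs of genes was not tested.

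Cell type markers moved along with these families. The counts of markers that rose or fell are with TMM scaling. It called 20.6% of all tested genes lower and 16.2% higher, and 40.2% and 13.4% of genes at member levels. Some markers, such as Dlx2, lie below those levels. Of 18 inhibitory neuron markers 12 fell and none rose, and their summed level was 2195 to 2460 CPM in labelled activated against 2850 to 2981 CPM in labelled control libraries. Of 16 excitatory neuron markers 9 fell and 1 rose, around a median log2 fold change of −0.31. Their sum was 2452 to 2644 CPM in labelled activated against 2344 to 2447 CPM in labelled control libraries. The 1 that rose, Camk2a, made up the largest part of this sum. It had 1281.8 ± 103.61 CPM in labelled activated and 999.9 ± 67.563 CPM in labelled control libraries (SD, n = 3 each). Of 16 astrocyte markers 15 rose and none fell, with sums of 2295 to 2758 CPM in labelled activated against 1669 to 1759 CPM in labelled control libraries. Of 13 tested endothelial, mural and fibroblast markers 9 rose and none fell, with sums of 400.3 to 464 CPM in labelled activated against 254 to 288 CPM in labelled control libraries. Of 13 tested microglia markers 8 rose and none fell, with sums of 74.2 to 139 CPM in labelled activated against 62.1 to 83.7 CPM in labelled control libraries. These sums overlapped, and the groups were apart for only 1 of the 13 microglia markers (7.69%), against 49.0% of all tested genes. Of 8 tested oligodendrocyte lineage markers 4 rose and none fell, with sums of 79.2 to 90.6 CPM in labelled activated against 60.4 to 65.8 CPM in labelled control libraries, and Gpr17 had no read on its own strand in any library. In bulk RNA, fewer cells of a type and less RNA per cell cannot be told apart. The part of these markers in the changes of the RBFOX, NOVA and PTB genes was not tested.

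Directions also depended on how libraries were scaled. With total counts only, 3 members were higher and 21 lower, against 2089 and 4576 of 18132 tested genes. With libraries set to a common level over the excitatory and inhibitory neuron markers, the median of all tested genes moved up by 0.40, and 25 members were called higher and none lower, against 60.1% and 1.47% of all tested genes. The fold changes of Clk1, Clk4, Tra2a and Ptbp1 were then 0.82, 0.77, 0.72 and 0.79, while those of Rbfox1, Hnrnpd, Hnrnpk and Rbfox3 lay between −0.06 and −0.02.

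**Figure D4:**
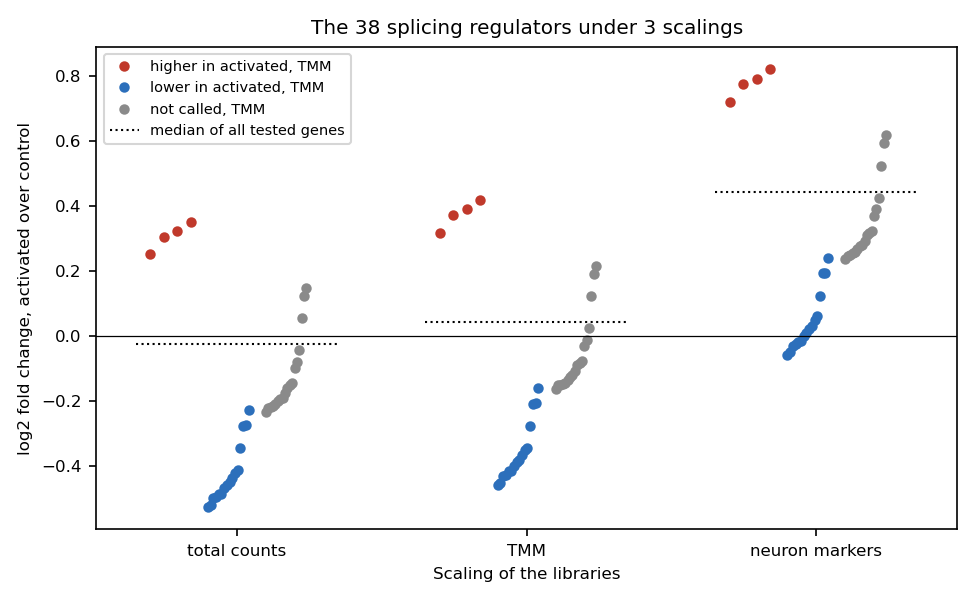
Log2 fold change of the 38 members (y axis, labelled activated over labelled control) with libraries scaled by total counts, by TMM and by neuron markers (x axis), coloured by their call under TMM, with the median of all tested genes as a dotted line. The dotted line lies at −0.02, 0.04 and 0.44; a change of scaling moves all genes together by construction, so only the position relative to zero differs between the 3 columns.

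Other genes of the pathway were taken from 2 lists. Of 74 tested further splicing regulators (78 listed), 15 rose (20.3%, against 16.2% of all tested genes and 13.4% of genes at member levels), 29 fell (39.2%, against 20.6% and 40.2%) and 30 were not called, around a median log2 fold change of −0.09. The share that fell was close to that of genes at member levels, although some of these regulators, such as Rbm4, lie below those levels. With neuron marker scaling, 44 of these regulators were called higher and 1 lower, against 60.1% and 1.47% of all tested genes. The 4 with the smallest p among those that rose were Tia1, a U-rich RNA and stress granule protein (0.65), Luc7l3, a relative of a yeast U1 snRNP protein (0.49), the glial-enriched splicing factor Qk (0.40) and Fubp1 (0.32). Those among the genes that fell were Hnrnpa0 (−0.65), Hnrnpul2 (−0.53), Hnrnpab (−0.55) and the neuronal ELAV gene Elavl4 (−0.53). The count of higher genes varied with the libraries used, with 7 without labelled control replicate 2 or labelled activated replicate 2, 9 without labelled control replicate 1 or 3 or labelled activated replicate 1, and 23 without labelled activated replicate 3. The count over all tested genes varied too. It was lowest without labelled control replicate 3 (1975 of 18511) and highest without labelled activated replicate 3 (3304 of 18439).

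Of 80 core spliceosome genes tested (81 listed), 4 rose, 46 fell and 30 were not called, around a median log2 fold change of −0.28. The share that fell was 57.5%, against 20.6% of all tested genes and 40.2% of genes at member levels. The share that rose was 5%, against 16.2% and 13.4%. Some core genes lie below member levels, so shares at those levels are not matched to this list. Snrpe, for example, averaged 6.54 CPM in labelled activated and 8.94 CPM in labelled control libraries. The ubiquitin ligase gene Prpf19 (−0.51), the neuronal Sm protein gene Snrpn (−0.56), the helicase gene Ddx42 (−0.40) and Bud31 (−0.52) had the smallest p among those that fell. The 4 that rose were Prpf39 (0.41), Cwc22 (0.74), the U1 snRNP gene Snrnp70 (0.37) and the helicase gene Dhx35 (0.25). Cwc22 varied widely, at 255, 168 and 127 CPM in labelled activated replicates 1, 2 and 3, against 109 ± 7.01 CPM in labelled control libraries (SD, n = 3).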

How the data were processed

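The authors deposited raw read counts per gene from STAR, both unstranded and by strand. The submitters' processing notes name STAR 2.5.2b, mm10 and edgeR. Parameters and annotation release are not given in the sources used here. Reverse-strand counts were used. The 4 lines per file that name no gene stayed out of library sizes and tests; beside the reads outside exons given above, they held 7.49% to 9.88% unmapped, 5.17% to 6.34% multimapping and 0.736% to 0.977% ambiguous reads. Symbols, coordinates and exon lengths came from GENCODE mouse release 21, which held 55144 of 55385 identifiers.

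Low counts were removed with filterByExpr (10 reads as minimum count, 15 as minimum total). After TMM scaling, labelled activated was tested against labelled control in edgeR 4.0.16 (quasi-likelihood, no covariate, R 4.3.3), with Benjamini-Hochberg adjustment over all tested genes. The SE is the size of the log2 fold change divided by the root of the F statistic. The biological coefficient of variation was 0.0762. The procedure was tested on simulated counts. Read ratios of 12 pairs were compared by exact permutation over samples.

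The neuron marker scaling uses the median ratio of each library's excitatory and inhibitory marker counts to their geometric means, without members. Other alternatives were DESeq2 1.42.0 size factors, its Wald test, total counts, every gene with at least 1 read, unstranded counts, a term for replicate number, and leaving out single libraries. The members, lists, markers and pairs were chosen with earlier results of these data known. The text names all members, the 4 genes of each further list with the smallest p in each direction, and Arc, Npas4 and Fosb. The comparison with genes at member levels, the motifs and the genes in the plot of levels were chosen after values were seen. Plots were drawn with matplotlib 3.10.9.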

Additional observations from a re-analysis of the deposited data

How the results depend on the processing

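Across 13 alternatives, Clk1, Clk4 and Ptbp1 were always called, and Tra2a in all but total counts. Srpk2, Hnrnpa1, Hnrnpa3, Hnrnpc, Hnrnpd, Hnrnpk, Rbm3, Cirbp, Rbfox1, Rbfox3 and Nova2 were called in all but the neuron marker scaling. Leaving out single libraries gave 4 to 6 members higher and 12 to 18 lower, and 7 to 23 other splicing regulators higher. Calls over all tested genes varied as well. Those higher went from 1975 of 18511 (without labelled control replicate 3) to 3304 of 18439 (without labelled activated replicate 3). Those lower went from 2846 of 18674 (without labelled control replicate 2) to 3908 of 18439 (without labelled activated replicate 3). With total counts only, 6 other splicing regulators were higher, against 2089 of 18132 tested genes. Replicate numbers were not shown to pair the samples, since deviations of same-numbered libraries correlated at −0.01, −0.18 and −0.21. With the replicate block, 4 members were higher and 13 lower, against 2173 and 3105 of 18132 tested genes.

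The neuron marker scaling moved every value up. It gave 25 members higher and 0 lower around a median of 0.25, 44 other splicing regulators higher and 1 lower, and 21 core spliceosome genes higher and 0 lower. Of all tested genes, 60.1% were then called higher and 1.47% lower. Log2 fold changes that were negative with TMM became positive for Srsf1 (0.29), Srsf2 (0.26), Srsf3 (0.25), Srsf4 (0.12), Srsf5 (0.27), Srsf6 (0.25), Srsf7 (0.28), Srsf9 (0.37), Srsf10 (0.39), Tra2b (0.19), Srpk2 (0.048), Hnrnpa1 (0.020), Hnrnpa2b1 (0.28), Hnrnpc (0.030), Hnrnpf (0.19), Hnrnph1 (0.32), Hnrnpl (0.25), Hnrnpm (0.32), Hnrnpu (0.24), Cirbp (0.00056), Rbfox2 (0.24), Nova1 (0.060), Nova2 (0.010) and Ptbp2 (0.31). Which scaling is nearer to RNA per cell was not tested. With 3 libraries a group, read ratios could not pass the threshold.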

Other observations

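Within the activated-labelled group, 20 of 38 members (52.6%) were highest in replicate 2 and lowest in replicate 3, against 3373 of 18132 tested genes (18.6%). This order was noticed after the values were seen and was not tested. The share of reads outside annotated exons had the same order, at 32.1%, 37.3% and 28.3% in labelled activated replicates 1, 2 and 3. Ptbp1 did not follow it, being highest in replicate 3.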
